A study of Homo sapiens with 12 samples.

Results

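The 42 genes described here encode integrin chains and the proteins that tie integrins to actin and to signalling at focal adhesions. They were chosen by symbol, as 12 integrin alpha chains, 8 integrin beta chains and 22 proteins of the adhesion plaque, out of 23273 genes listed for each of 2 BRAF-mutant melanoma cell lines, COLO858 and MMACSF. A gene counted as measured in a line where its mean reached 1 FPKM (fragments of a gene scaled to transcript length and library size) in at least 1 group. By that rule 35 of the 42 genes were measured in COLO858 and 33 in MMACSF, 32 of them in both lines and 36 in either. The genes were chosen with earlier results of these data known. Their counts and medians set beside those of all genes therefore describe the set and are no test of it.

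Integrins are receptors made of an alpha and a beta chain that bind matrix proteins outside the cell, and the pairing of the chains sets which ligand is bound. Talins and kindlins bind the beta chain tail and switch the receptor on, FAK and SRC family kinases signal from the clustered receptors, the ILK, PINCH and parvin complex and the tensins link them to actin, and paxillin and p130Cas are docking proteins. In melanoma the alpha v and beta 3 pair, which binds vitronectin, is known for its link to invasive growth.

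The study asked how these lines respond to vemurafenib, an inhibitor of mutant BRAF. Each line was grown in culture with DMSO, the vehicle, or with 0.2 μM vemurafenib for 24 h or 48 h, and 2 plates per group were sequenced as stranded mRNA libraries, giving 12 libraries. No harvest time is labelled for the DMSO plates, so both drug times of a line were compared with the same 2 DMSO libraries and those comparisons are not independent. Each line is a single established cell line, so the p-values cover the spread between plates of that line.

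The deposited values are FPKM, and the read depth behind them is unknown. The table of each line was normalized separately, so levels set side by side across the lines are approximate. A library's FPKM summed to between 670300 and 1013000 in COLO858 and between 726100 and 856100 in MMACSF, and no pair of libraries held identical values. As a check of the treatment labels, of 12 MAPK output genes 9 were lower than in DMSO and 0 higher at each time in each line (limma on log2(FPKM + 1), Benjamini-Hochberg adjusted p under 0.01). The melanoma label was checked on 8 melanocyte lineage genes, of which 7 reached 1 FPKM in a COLO858 library and 8 in an MMACSF library. In COLO858 MLANA (0.299 to 0.725 FPKM) and TYR (0.282 to 1.21 FPKM) were near the floor, beside 962 to 2312 and 178 to 402 FPKM in MMACSF. Of the lineage genes tested in COLO858, 4 of 7 rose at 24 h and 4 at 48 h, where 4.11% and 4.74% of all genes did. In MMACSF 1 of 8 rose at 24 h and 3 at 48 h, beside 2.22% and 3.42%. Of the markers of other cells that carry integrins, 0 of 5 leukocyte, 0 of 3 endothelial, 0 of 3 epithelial and 0 of 3 platelet lineage genes reached 1 FPKM in any library. In bulk samples fewer cells that express a gene and less RNA per cell cannot be told apart.

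In COLO858 vemurafenib shifted the integrin chains in both directions. The beta chain ITGB3 and the alpha chains ITGA9, ITGA10 and ITGA11 fell at both times, while the collagen receptor chain ITGA1 and the membrane protein CAV1 rose at both times. Of the 35 measured genes, 4 were higher at 24 h (ITGA1, ITGA4, TNS3 and CAV1), where 4.11% of all genes tested were higher, and 5 were lower (ITGA9, ITGA10, ITGA11, ITGB3 and ITGB8), where 5.71% were lower. At 48 h 4 were higher (ITGA1, TLN2, TNS3 and CAV1), against 4.74% of all genes, and 5 were lower (ITGA9, ITGA10, ITGA11, ITGB3 and PARVB), against 4.73%. The median log2 fold-change of the 35 genes was 0.13 at 24 h and 0.28 at 48 h, beside 0.06 and -0.01 over all genes tested. At an unadjusted limma p under 0.05, 15 of the 35 differed from DMSO at 24 h and 22 at 48 h, where 40.3% and 39.3% of all genes did. Leaving out any 1 of the 4 libraries compared kept only ITGB3 past the threshold at 24 h and ITGB3, ITGA10 and CAV1 at 48 h. The other calls then had adjusted p-values up to 0.0643 at 24 h and up to 0.0447 at 48 h, and no call changed sign. With no minimum on FPKM the calls for ITGA1, ITGB8 and TNS3 at 24 h and TLN2 at 48 h were lost, and a fit to only the 4 libraries compared lost ITGA1, ITGA4, ITGA11, ITGB8 and TNS3 at 24 h and ITGA11, TLN2 and PARVB at 48 h.

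In MMACSF the tensin genes rose and ITGA4 fell. Of 33 measured genes, 2 were higher at 24 h (TNS1 and TNS3), where 2.22% of all genes were higher, and 0 were lower, where 3.6% were lower. At 48 h 3 were higher (PTK2B, TNS1 and TNS3), against 3.42% of all genes, and 1 was lower (ITGA4), against 5.41%. At an unadjusted limma p under 0.05, 15 of the 33 differed from DMSO at 24 h and 14 at 48 h, where 36% and 38.9% of all genes did, so these counts lay near the background. The median log2 fold-change of the 33 genes was 0.18 at 24 h and 0.20 at 48 h, beside 0.07 and 0.06 over all genes. With any 1 of the 4 libraries left out, 0 of these calls passed, with adjusted p-values up to 0.0541 at 24 h and 0.0455 at 48 h. A fit to only the 4 libraries compared lost TNS1 at 24 h and PTK2B at 48 h (adjusted p = 0.026 and 0.0101), and no minimum lost TNS1 at 24 h (adjusted p = 0.0115).

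**Figure D1:**
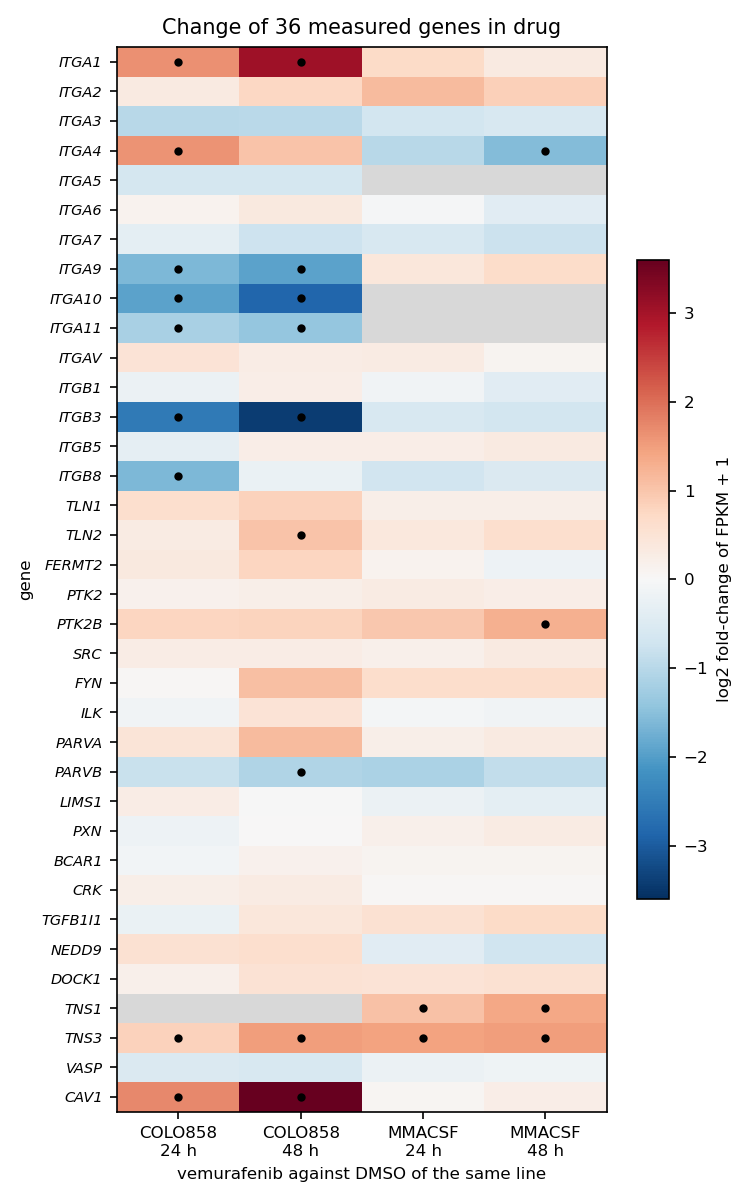
Colour gives the log2 fold-change of FPKM + 1 against the DMSO libraries of the same line for the 36 genes measured in either line, grouped by role, with 1 column per line and drug time. Dots mark limma calls at adjusted p under 0.01, and grey cells were under 1 FPKM in that line. The darkest cells are CAV1 and ITGA1 (higher) and ITGB3 (lower) in COLO858 at 48 h, and TNS3 carries a dot in all 4 columns.

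Among the beta chains, ITGB3 pairs with the alpha v chain to bind vitronectin and other proteins with an RGD motif. In COLO858 it stood at 167 and 181 FPKM in the DMSO libraries, at 29.1 and 29.5 FPKM at 24 h, and at 15.5 and 15.0 FPKM at 48 h. The 3 groups did not overlap, and within each drug group the 2 libraries lay close together. The mean level was 5.95-fold lower at 24 h and 11.4-fold lower at 48 h, or -2.53 (SE 0.12, limma adjusted p = 0.000688) and -3.43 (SE 0.12, adjusted p = 0.000262) as log2 fold-changes. In MMACSF it stood at 63.8 and 75.3 FPKM in DMSO, at 41.6 and 52.0 FPKM at 24 h and at 41.3 and 46.4 FPKM at 48 h. There both drug groups lay below DMSO, but the log2 fold-change of -0.65 at 48 h (95% interval -1.06 to -0.24, limma adjusted p = 0.0403) missed the threshold. In the GENCODE v44lift37 annotation 33.2% of the exonic bases of ITGB3 (chr17:45331193-45391109, GRCh37, plus strand) also belong to another gene model on the same strand.

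ITGB1 and ITGB5 gave no call in either line. ITGB1, the chain shared by most collagen and laminin receptors, stood at 69.6 and 102 FPKM in DMSO, 62.9 and 82.1 FPKM at 24 h and 83.4 and 117 FPKM at 48 h in COLO858. The 24 h libraries lay below the 48 h ones, but both drug groups overlapped with DMSO. The log2 fold-change of 0.23 at 48 h had a 95% interval of -0.46 to 0.92 (limma adjusted p = 0.578). In MMACSF ITGB1 was measured at 134 and 185 FPKM in DMSO, 126 and 166 FPKM at 24 h and 105 and 133 FPKM at 48 h. There the 48 h libraries lay below DMSO, with a log2 fold-change of -0.41 (95% interval -0.99 to 0.16, limma adjusted p = 0.247). With the replicate number as a block, that change passed the threshold (limma adjusted p = 0.00524). ITGB5, another partner of the alpha v chain, lay between 69.1 and 114 FPKM over the 6 COLO858 libraries and between 23.8 and 34.8 FPKM over those of MMACSF.

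ITGB8, whose pairing with alpha v binds latent TGF-beta, was called lower at 24 h and not at 48 h. COLO858 held 4.33 and 6.79 FPKM in DMSO, at 1.01 and 1.21 FPKM at 24 h and at 3.75 and 5.20 FPKM at 48 h. Both 24 h libraries lay below DMSO, whereas the 48 h libraries overlapped with it. Its log2 fold-change came to -1.61 at 24 h (SE 0.25, limma adjusted p = 0.00998), just past the threshold, and -0.25 at 48 h (95% interval -0.87 to 0.37). The call was lost with no minimum on FPKM, which tests more genes (adjusted p = 0.0175). ITGB2, ITGB4, ITGB6 and ITGB7, chains of leukocytes and epithelia, stayed under 0.4 FPKM in all 12 libraries.

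Because FPKM is scaled to transcript length, the levels of the chains can be set side by side within a library. In COLO858 ITGB3 made up 48.9% ± 0.523 (SD, n = 2) of the summed beta chain FPKM in DMSO, 16.7% ± 0.737 at 24 h and 6.74% ± 0.557 at 48 h. The share of ITGB1 went from 23.9% ± 4.78 to 41.1% ± 5.50 and 43.9% ± 7.96, and that of ITGB5 from 25.6% ± 4.60 to 41.3% ± 4.82 and 47.2% ± 7.66. These shares are tied to each other, and the larger shares of ITGB1 and ITGB5 came with no call for either gene. The summed beta chain level itself was 356 ± 23.4 FPKM in DMSO, 176 ± 9.50 at 24 h and 227 ± 13.1 at 48 h. In MMACSF ITGB1 held 60.1% ± 3.47, 63.7% ± 2.77 and 58.9% ± 3.51 of the beta chain level at the same 3 points, and ITGB3 26.5% ± 1.32, 20.5% ± 0.0471 and 21.8% ± 0.431.

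Relative to ITGAV, the alpha chain that ITGB3 pairs with, the ratio of ITGAV to ITGB3 FPKM in COLO858 was 0.0872 and 0.122 in the DMSO libraries, 0.752 and 1.01 at 24 h and 1.17 and 1.73 at 48 h. ITGAV alone ranged from 14.6 to 29.8 FPKM over these 6 libraries with no call. In MMACSF the same ratio was 0.319 and 0.387 in DMSO and 0.540 and 0.664 at 48 h.

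**Figure D2:**
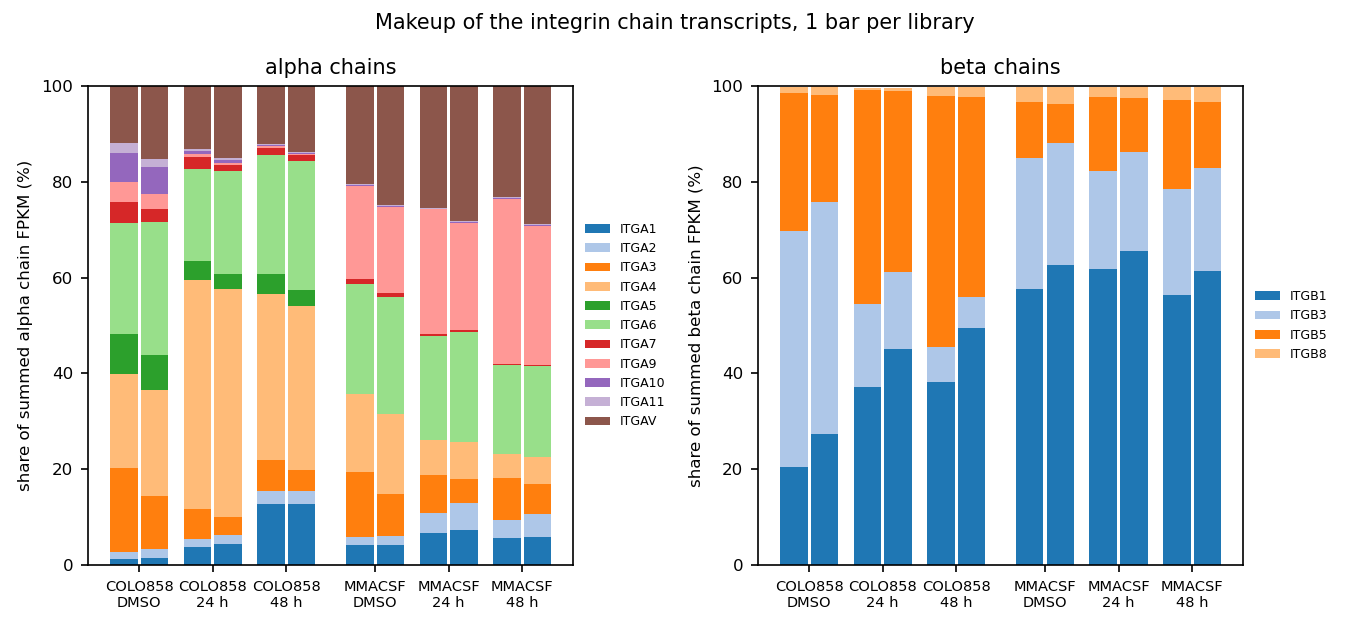
Stacked bars give the share (%) of each gene in the summed FPKM of the alpha chains (left) and beta chains (right), with 1 bar per library, 2 per group, and genes drawn where they reach 1% in some group. In COLO858 the ITGB3 share shrank from 48.9% to 6.74% while ITGA4 widened from 20.9% to 47.7% at 24 h and ITGA1 from 1.29% to 12.7% at 48 h.

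Among the alpha chains, ITGA1 pairs with the ITGB1 product to form a collagen receptor. In COLO858 it was measured at 1.43 and 2.05 FPKM in DMSO, 6.44 and 8.57 FPKM at 24 h and 19.2 and 23.7 FPKM at 48 h. No group overlapped with another, and the mean was 4.32-fold higher at 24 h and 12.4-fold higher at 48 h. In log2 terms it rose by 1.63 at 24 h (SE 0.22, limma adjusted p = 0.00656) and 3.04 at 48 h (SE 0.22, adjusted p = 0.00134). In MMACSF, which started higher, it stood at 4.05 and 4.97 FPKM in DMSO, 6.81 and 9.01 FPKM at 24 h and 5.39 and 6.34 FPKM at 48 h, with a log2 fold-change of 0.32 at 48 h (95% interval -0.16 to 0.80). The gene PELO lies inside ITGA1 (chr5:52083750-52255039, GRCh37, plus strand). PELO and RPL17P21 together share 5.77% of the exonic bases of ITGA1 on the same strand. On the opposite strand ITGA2-AS1 and PELO-AS1 share 8.06%. PELO stood at 17.1 and 17.0 FPKM in COLO858 with DMSO, 17.1 and 16.2 FPKM at 24 h and 23.8 and 24.9 FPKM at 48 h, a log2 fold-change of 0.49 at 48 h (limma adjusted p = 0.043) where that of ITGA1 was 3.04.

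ITGA4, the alpha chain of a receptor for fibronectin and VCAM1, moved in opposite directions in the 2 lines. In COLO858 its levels were 23.9 and 32.3 FPKM in DMSO, 79.9 and 93.9 FPKM at 24 h and 52.4 and 63.7 FPKM at 48 h. Both drug groups lay above DMSO, with the 24 h libraries highest, and the rise in log2 was 1.61 at 24 h (SE 0.20, limma adjusted p = 0.00572) and 1.03 at 48 h (95% interval 0.52 to 1.54, adjusted p = 0.0208). In MMACSF its levels were 16.3 and 19.5 FPKM in DMSO, 7.48 and 9.43 FPKM at 24 h and 4.83 and 5.92 FPKM at 48 h. There each group lay below the one before it, and the change in log2 was -1.003 at 24 h (95% interval -1.46 to -0.54, limma adjusted p = 0.0197) and -1.57 at 48 h (SE 0.18, adjusted p = 0.00501). CERKL lies across 26.4% of the exonic bases of ITGA4 (chr2:182321929-182403667, GRCh37, plus strand) on the opposite strand. Its FPKM moved alike, from 11.5 and 16.5 in DMSO to 35.9 and 45.5 at 24 h in COLO858 and from 6.81 and 9.24 in DMSO to 2.78 and 2.51 at 48 h in MMACSF. The kit marked the strand, but whether reads were assigned by strand is not given in the sources used here, and how far reads were shared between these genes was not tested.

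ITGA9, ITGA10 and ITGA11 fell in COLO858. ITGA9, whose pairing with the ITGB1 product binds tenascin-C and other ligands, stood at 5.10 and 4.66 FPKM in DMSO, 1.01 and 0.797 FPKM at 24 h and 0.597 and 0.489 FPKM at 48 h. The groups did not overlap, and the mean was 5.40-fold lower at 24 h and 8.98-fold lower at 48 h (log2 fold-change -1.93, SE 0.14, limma adjusted p = 0.00152). In MMACSF ITGA9 was higher from the start and lay above DMSO in both drug groups, at 19.1 and 20.8 FPKM in DMSO, 26.4 and 27.3 FPKM at 24 h and 33.1 and 30.9 FPKM at 48 h. Its log2 fold-change there was 0.65 at 48 h (95% interval 0.36 to 0.95), which missed the threshold (limma adjusted p = 0.0151).

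ITGA10 and ITGA11 encode collagen-binding alpha chains best known from cartilage and from fibroblasts. ITGA10 (chr1:145524969-145543868, GRCh37, plus strand) was at 7.44 and 8.08 FPKM in COLO858 with DMSO, at 1.34 and 1.27 FPKM at 24 h and at 0.163 and 0.282 FPKM at 48 h. That was a steady fall with no overlap, 5.94-fold at 24 h and 34.9-fold at 48 h by the FPKM means. On the log2(FPKM + 1) scale, which understates changes of low genes, the fold-change was -1.92 at 24 h (SE 0.14, limma adjusted p = 0.00139) and -2.84 at 48 h (SE 0.14, adjusted p = 0.000553). ITGA11 went from 2.56 and 2.61 FPKM in DMSO to 0.667 and 0.512 FPKM at 24 h and 0.484 and 0.255 FPKM at 48 h, which was 4.38-fold and 6.99-fold lower (limma adjusted p = 0.00609 and 0.0042). With 0.1 FPKM added instead of 1, its call at 24 h was lost (adjusted p = 0.0179). In MMACSF neither gene reached 0.4 FPKM in any library.

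**Figure D3:**
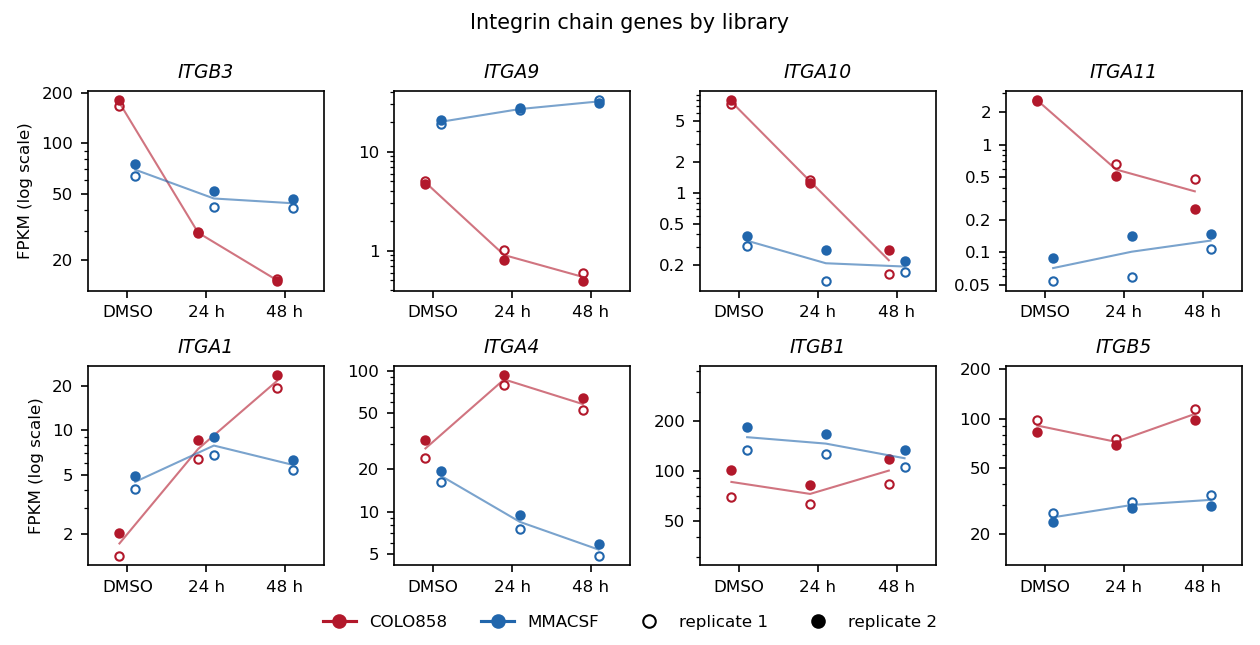
Points are FPKM (log scale, each panel with its own range) of 8 integrin chain genes in each library, red for COLO858 and blue for MMACSF, open for replicate 1 and filled for replicate 2, and lines join the means of the 2 libraries. In COLO858 ITGB3 runs from 174 to 15.3 FPKM and ITGA1 from 1.74 to 21.5 FPKM, while for ITGB1 both drug groups overlap with DMSO.

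The promoters of CAV1 and of the integrin chains called against DMSO in COLO858 are shown so that their bases can be read beside these levels. RefSeq promoters (GRCh38.p14, 250 bases before to 50 after the start site) were given for 31 of the 42 genes, not for ITGA9 and ITGB3. Where a gene had several, as CAV1 did, the last listed was taken. Those below each have an exact match in GRCh37, which gives the coordinates, at chr7:116166166-116166465 (plus strand) for CAV1, chr5:52083500-52083799 (plus strand) for ITGA1, chr2:182321863-182322162 (plus strand) for ITGA4, chr1:145524780-145525079 (plus strand) for ITGA10, chr15:68724453-68724752 (minus strand) for ITGA11 and chr7:20370273-20370572 (plus strand) for ITGB8. Of 7 motifs searched on both strands these promoters held a pair, and capitals mark them, the GC box GGGCGG in CAV1 and, on the other strand, in ITGB8, and the TEAD motif GGAATG on the other strand in ITGA10.
CAV1: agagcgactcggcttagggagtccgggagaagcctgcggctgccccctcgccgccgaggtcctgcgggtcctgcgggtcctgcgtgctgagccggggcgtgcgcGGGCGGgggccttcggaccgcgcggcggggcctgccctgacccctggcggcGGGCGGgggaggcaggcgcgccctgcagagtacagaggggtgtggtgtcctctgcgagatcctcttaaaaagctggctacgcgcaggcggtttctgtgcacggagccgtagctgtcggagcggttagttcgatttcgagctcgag
ITGA1: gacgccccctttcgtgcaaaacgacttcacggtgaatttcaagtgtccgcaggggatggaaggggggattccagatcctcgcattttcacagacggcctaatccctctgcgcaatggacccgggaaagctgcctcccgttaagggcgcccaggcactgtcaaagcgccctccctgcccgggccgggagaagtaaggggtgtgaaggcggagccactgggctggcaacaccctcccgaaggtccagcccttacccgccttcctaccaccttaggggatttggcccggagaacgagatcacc
ITGA4: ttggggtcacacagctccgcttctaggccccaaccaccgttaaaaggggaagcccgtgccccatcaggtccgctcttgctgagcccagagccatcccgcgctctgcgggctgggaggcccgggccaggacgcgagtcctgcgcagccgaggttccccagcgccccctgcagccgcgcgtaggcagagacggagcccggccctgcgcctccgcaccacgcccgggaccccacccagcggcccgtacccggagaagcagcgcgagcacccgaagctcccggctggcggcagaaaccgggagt
ITGA10: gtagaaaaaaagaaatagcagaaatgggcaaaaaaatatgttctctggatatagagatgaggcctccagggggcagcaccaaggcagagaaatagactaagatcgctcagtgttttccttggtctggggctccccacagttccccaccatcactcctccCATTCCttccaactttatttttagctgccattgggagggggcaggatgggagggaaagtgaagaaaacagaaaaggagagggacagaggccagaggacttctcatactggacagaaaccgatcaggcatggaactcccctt
ITGA11: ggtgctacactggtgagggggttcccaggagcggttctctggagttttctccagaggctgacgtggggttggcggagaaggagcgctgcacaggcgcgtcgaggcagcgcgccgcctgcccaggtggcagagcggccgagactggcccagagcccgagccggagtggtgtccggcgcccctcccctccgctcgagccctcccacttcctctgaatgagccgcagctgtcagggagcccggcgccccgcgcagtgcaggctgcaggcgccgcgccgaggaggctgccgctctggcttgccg
ITGB8: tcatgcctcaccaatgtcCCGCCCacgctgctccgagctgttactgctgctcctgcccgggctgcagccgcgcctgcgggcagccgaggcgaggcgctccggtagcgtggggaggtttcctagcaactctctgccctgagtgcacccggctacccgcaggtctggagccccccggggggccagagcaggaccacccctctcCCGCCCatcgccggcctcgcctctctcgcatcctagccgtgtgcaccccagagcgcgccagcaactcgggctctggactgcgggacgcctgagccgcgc
The GC box stands at bases -146 to -141 and -95 to -90 from the start site of CAV1 and at -232 to -227 and -49 to -44 from that of ITGB8. A GC box was in 15 of the 31 promoters, beside 44.9% of 35093 promoters. Those 35093 can include several promoters of a gene, while each of the 31 genes gave a single promoter. The shares here and below are therefore not strictly alike. The AP-1 motif TGANTCA was in 1 of the 31 (ITGA5, beside 7.71% of all promoters), the TEAD motif in 4 (ITGA5, ITGA10, where it stands at bases -91 to -86, PXN and DOCK1, beside 14%) and the ETS motif CGGAAG in 3 (ITGA6, TLN1 and VASP, beside 19.5%). The E-box CACGTG was in 1 (ILK, beside 7.26%), the TATA box TATAAA in 2 (ITGB1 and LIMS1, beside 11.5%) and the CRE motif TGACGTCA in 0 (beside 1.85%).

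The remaining alpha chains gave no call. ITGA6, a laminin receptor chain, was among the most abundant, at 28.3 to 50.2 FPKM in COLO858 and 17.7 to 28.5 FPKM in MMACSF. ITGA3, another laminin receptor chain, stood at 21.3 and 15.8 FPKM in COLO858 with DMSO and at 9.76 and 8.04 FPKM at 48 h, a log2 fold-change of -0.97 (95% interval -1.57 to -0.37, limma adjusted p = 0.0374). ITGA5, the alpha chain of the fibronectin receptor, set the lines apart, with 5.92 to 10.4 FPKM in COLO858 and at most 0.0317 FPKM in MMACSF. ITGA8 was listed at 0 in all 12 libraries.

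As shares of the summed alpha chain FPKM, ITGA4 held 20.9% ± 1.87 (SD, n = 2) in COLO858 with DMSO, 47.7% ± 0.113 at 24 h and 34.4% ± 0.323 at 48 h, and ITGA1 held 1.29% ± 0.170, 4.10% ± 0.354 and 12.7% ± 0.00169. In MMACSF ITGA4 went the other way, from 16.6% ± 0.207 to 7.56% ± 0.240 and 5.29% ± 0.359. There ITGA9 held 18.6% ± 1.05, 24.2% ± 2.65 and 31.7% ± 3.89, the highest alpha chain share at 48 h in that line.

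Of the activators, the talin gene TLN2 rose in COLO858. It was at 1.42 and 1.43 FPKM in DMSO, 1.88 and 2.02 FPKM at 24 h and 4.07 and 3.83 FPKM at 48 h. The 48 h libraries lay above all others, with a log2 fold-change of 1.03 (SE 0.13, limma adjusted p = 0.00634). In MMACSF it was at 2.21 and 2.40 FPKM in DMSO and 3.94 and 4.01 FPKM at 48 h, a log2 fold-change of 0.59 that missed the threshold (limma adjusted p = 0.0346). Between the lines the response at 48 h differed by 0.44 (95% interval 0.11 to 0.77, limma adjusted p = 0.0842). The more abundant talin gene TLN1 was at 35.3 and 32.7 FPKM in COLO858 with DMSO and 65.1 and 57.4 FPKM at 48 h, just short of the threshold (limma adjusted p = 0.011). The kindlin gene FERMT2 was measured in both lines with no call, and FERMT1, the kindlin of epithelia, stayed at or under 0.406 FPKM.

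Of the 4 kinase genes 1 was called, in MMACSF at 48 h. PTK2, which encodes FAK, was at 23.2 and 28.3 FPKM in COLO858 with DMSO, 26.8 and 30.8 FPKM at 24 h and 28.2 and 31.2 FPKM at 48 h. Its log2 fold-change at 48 h was 0.20 in COLO858 (95% interval -0.21 to 0.61) and 0.25 in MMACSF (95% interval -0.14 to 0.65). SRC gave 0.28 (95% interval -0.27 to 0.83) in COLO858 and 0.31 (95% interval -0.13 to 0.75) in MMACSF at 48 h, and its level in MMACSF, 22.2 to 32.01 FPKM, lay above that in COLO858, 9.58 to 15.6 FPKM.

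FYN, another SRC family kinase gene, stood at 16.2 and 18.9 FPKM in COLO858 with DMSO, 16.9 and 19.4 FPKM at 24 h and 33.5 and 43.4 FPKM at 48 h. The 48 h libraries lay above the rest, with a log2 fold-change of 1.08 (95% interval 0.61 to 1.55) that missed the threshold (limma adjusted p = 0.0138). FYN passed there in 3 of 12 alternatives, namely with the replicate number as a block, after median-ratio rescaling and without small RNA genes. In MMACSF it was at 22.3 and 25.3 FPKM in DMSO, 36.7 and 37.5 FPKM at 24 h and 35.5 and 39.6 FPKM at 48 h. Its log2 fold-change there was 0.64 at 48 h (95% interval 0.32 to 0.95, limma adjusted p = 0.0204). In that line the block alone put it past the threshold, at 24 h and at 48 h (limma adjusted p = 0.00352 and 0.0028).

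The called gene was PTK2B, which encodes the FAK relative PYK2. In MMACSF it went from 1.52 and 1.59 FPKM in DMSO to 4.01 and 3.91 FPKM at 24 h and 5.02 and 5.34 FPKM at 48 h. No group overlapped with another, and the log2 fold-change at 48 h was 1.28 (SE 0.14, limma adjusted p = 0.00398). In COLO858 it was the measured gene nearest the minimum, with a highest group mean of 2.07 FPKM, and gave a log2 fold-change of 0.80 at 48 h (95% interval 0.45 to 1.14, limma adjusted p = 0.0138). The nearest genes below the minimum in COLO858 were ITGB4, with a highest group mean of 0.325 FPKM, and TNS1, with 0.316 FPKM.

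In the ILK, PINCH and parvin complex, the parvin gene PARVB fell. COLO858 libraries held 101 and 88.9 FPKM in DMSO, 56.0 and 52.9 FPKM at 24 h and 46.6 and 41.5 FPKM at 48 h. The groups did not overlap, and the change in log2 was -1.09 at 48 h (SE 0.14, limma adjusted p = 0.00607), which no longer passed after median-ratio rescaling (-1.13, adjusted p = 0.0116). In MMACSF both drug groups also lay below DMSO, at 151 and 125 FPKM in DMSO, 64.6 and 59.7 FPKM at 24 h and 83.3 and 66.5 FPKM at 48 h. Its log2 fold-change of -1.13 at 24 h lay just outside the threshold (limma adjusted p = 0.0106).

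The other parvin gene, PARVA, was at 2.61 and 3.72 FPKM in COLO858 with DMSO and at 6.84 and 9.63 FPKM at 48 h, the highest log2 fold-change among genes with no call (1.15, 95% interval 0.53 to 1.76, limma adjusted p = 0.0255). The ratio of PARVB to PARVA FPKM in COLO858 was 38.8 and 23.9 in the DMSO libraries, 13.6 and 9.86 at 24 h and 6.81 and 4.30 at 48 h. ILK, at 123 and 115 FPKM in DMSO and 167 and 166 FPKM at 48 h, had a log2 fold-change of 0.48 in COLO858 (95% interval 0.20 to 0.77) with no call. Exons of TAF10 and other models lie on the opposite strand across 78.5% of its exonic bases. LIMS1, which encodes PINCH, gave no call in either line.

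None of the 6 docking protein genes (PXN, BCAR1, CRK, TGFB1I1, NEDD9 and DOCK1) was called against DMSO by limma in either line. At an unadjusted p under 0.05, 1 of the 6 differed in COLO858 at 24 h and 2 at 48 h, beside 40.3% and 39.3% of all genes, and 1 and 2 in MMACSF, beside 36% and 38.9%. These counts did not exceed the background. PXN, which encodes paxillin, was the most abundant, at 103 to 139 FPKM in COLO858 and 62.4 to 88.5 FPKM in MMACSF. Exons of PXN-AS1 and other models lie on the opposite strand across 27.2% of the exonic bases of PXN.

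Among the proteins at the actin and membrane side, CAV1 encodes the coat protein of caveolae. In COLO858 it was at 5.91 and 7.21 FPKM in DMSO, 22.4 and 25.9 FPKM at 24 h and 81.2 and 106 FPKM at 48 h. Each group lay well above the one before it, and the mean was 3.68-fold higher at 24 h and 14.2-fold higher at 48 h. In log2 terms it rose by 1.73 at 24 h (SE 0.19, limma adjusted p = 0.00407) and 3.63 at 48 h (SE 0.19, adjusted p = 0.000665). In MMACSF its groups overlapped, at 35.7 and 45.7 FPKM in DMSO, 37.7 and 47.3 FPKM at 24 h and 42.3 and 53.9 FPKM at 48 h (log2 fold-change 0.24 at 48 h, 95% interval -0.27 to 0.75).

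CAV1 was also the 1 gene of the 35 that differed between 48 h and 24 h in COLO858 (log2 fold-change 1.90, SE 0.19, limma adjusted p = 0.00951), where 1.17% of all genes were higher at 48 h. For this comparison 0 of the 35 were lower, where 0.213% of all genes were, and 12 of the 35 differed at an unadjusted limma p under 0.05, beside 20.1% of all genes. The call was lost when any 1 of the 4 libraries was left out, with adjusted p-values between 0.0441 and 0.0759, with no minimum on FPKM (0.0157) and with only the 4 libraries compared (0.0192). In MMACSF 0 of 33 genes were called higher and 0 lower between 48 h and 24 h (0.111% of all genes each), and 1 differed at an unadjusted limma p under 0.05, beside 6.98% of all genes.

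The tensin gene TNS3, whose product joins integrin tails to actin, was the only gene of the set called in both lines in the same direction, at both times. In COLO858 it was at 18.9 and 17.99 FPKM in DMSO, 34.8 and 32.6 FPKM at 24 h and 56.1 and 52.3 FPKM at 48 h. In MMACSF it was at 45.3 and 43.5 FPKM in DMSO, 122 and 123 FPKM at 24 h and 130 and 127 FPKM at 48 h. In both lines every drug library lay above every DMSO library, and the rise in MMACSF was close to its 48 h level by 24 h. The gain in log2 was 0.83 at 24 h and 1.504 at 48 h in COLO858 (SE 0.13, limma adjusted p = 0.00968 and 0.00204) and 1.45 and 1.51 in MMACSF (SE 0.10, adjusted p = 0.00181 and 0.00102). The 24 h call in COLO858 was a narrow one that held in 3 of 12 alternatives. Besides the settings given above, it was lost after median-ratio rescaling (log2 fold-change 0.73, limma adjusted p = 0.0249), with 0.1 FPKM added (adjusted p = 0.0101) and with no trend in the variance (adjusted p = 0.0107). The response in COLO858 minus that in MMACSF was -0.61 at 24 h (95% interval -0.90 to -0.33, limma adjusted p = 0.0188) and -0.01 at 48 h (95% interval -0.29 to 0.27).

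TNS1, a second tensin gene, rose in MMACSF. It stood there at 8.87 and 8.89 FPKM in DMSO, 17.9 and 21.1 FPKM at 24 h and 24.0 and 25.4 FPKM at 48 h. The groups did not overlap, and the gain in log2 was 1.05 at 24 h (SE 0.13, limma adjusted p = 0.00772) and 1.38 at 48 h (SE 0.13, adjusted p = 0.00298). In COLO858 it stayed at or under 0.361 FPKM and was not tested in that line. There it was at 0.104 and 0.0957 FPKM in DMSO, 0.271 and 0.361 FPKM at 24 h and 0.270 and 0.182 FPKM at 48 h. At these low levels both drug groups also lay above DMSO. VASP, which promotes actin filament growth, gave no call, at 26.7 to 50.4 FPKM in COLO858 and 10.7 to 19.1 FPKM in MMACSF.

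**Figure D4:**
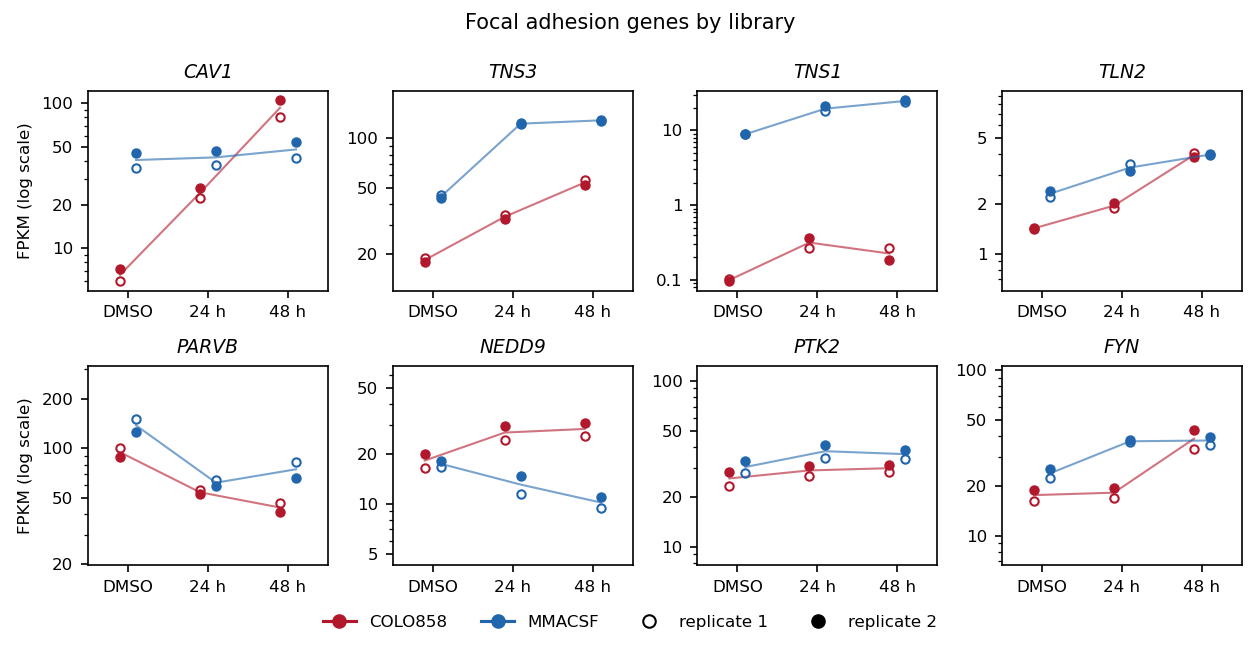
Points are FPKM (log scale, each panel with its own range) of 8 focal adhesion genes in each library, red for COLO858 and blue for MMACSF, open for replicate 1 and filled for replicate 2, and lines join the means of the 2 libraries. CAV1 in COLO858 runs from 6.56 to 93.4 FPKM and passes the MMACSF level of 48.1 FPKM at 48 h, TNS3 climbs in both lines, and TNS1 stays under 0.4 FPKM in COLO858.

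Whether the 2 lines responded differently was tested as the COLO858 fold-change minus the MMACSF fold-change, over 36 genes and all 12 libraries. At 24 h 1 gene was higher in that difference (ITGA4, where 1.78% of all genes were) and 4 were lower (ITGA9, ITGA10, ITGA11 and ITGB3, where 1.93% were). At 48 h 4 were higher (ITGA1, ITGA4, NEDD9 and CAV1, against 4.19% of all genes) and 5 lower (ITGA9, ITGA10, ITGA11, ITGB3 and TNS1, against 3.3%). Of the genes called, ITGA10 and ITGA11 were under 1 FPKM in MMACSF and TNS1 in COLO858. Their calls restate the change in the other line. The median difference over the 36 genes was -0.17 at 24 h and 0.00083 at 48 h on the log2 scale, beside -0.01 and -0.04 over all genes. Leaving out any 1 of 8 libraries kept 4 of the 5 calls at 24 h and 7 of the 9 at 48 h.

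The differences at 48 h were 3.40 for CAV1 (SE 0.29, limma adjusted p = 0.000205), 2.72 for ITGA1 (SE 0.29, adjusted p = 0.000596) and -2.78 for ITGB3 (SE 0.19, adjusted p = 6.15e-05). For ITGA4 and ITGA9 the lines moved apart, with differences of 2.60 (SE 0.28, limma adjusted p = 0.000589) and -2.58 (SE 0.16, adjusted p = 3.99e-05). For ITGA10 (-2.67) and ITGA11 (-1.47) the difference is in effect the fall in COLO858, since MMACSF held under 0.4 FPKM of each. ITGA11 at 24 h lost its call without replicate 1 of MMACSF in DMSO (-1.19, limma adjusted p = 0.0157) and on leaving out 5 other libraries in turn. With 0.1 FPKM added, ITGA10 (-1.92, adjusted p = 0.0359) and ITGA11 (-2.18, adjusted p = 0.0431) lost theirs at 24 h. For TNS1 (-1.22, SE 0.17, limma adjusted p = 0.0019) the difference is in effect the rise in MMACSF on this scale, since COLO858 held under 0.4 FPKM. TNS1 also rose in COLO858 at that low level, and with 0.1 FPKM added instead of 1 the call was lost (-0.77, adjusted p = 0.115). It was also lost without replicate 2 of COLO858 at 48 h, of MMACSF in DMSO or of MMACSF at 48 h (limma adjusted p = 0.0101, 0.0101 and 0.0105).

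NEDD9, a docking protein linked to melanoma spread, was called only in the difference. Libraries of COLO858 held 16.3 and 20.1 FPKM in DMSO and 25.7 and 30.8 FPKM at 48 h. In MMACSF it was at 16.7 and 18.2 FPKM in DMSO and 9.42 and 10.9 FPKM at 48 h. The drug libraries lay above DMSO in the first line and below it in the second, and the difference was 1.33 (SE 0.25, limma adjusted p = 0.00888). It passed narrowly, and was lost with no minimum on FPKM (adjusted p = 0.0111) and on leaving out any 1 of the 8 libraries (adjusted p up to 0.0398).

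For ITGB1 and FYN the difference at 48 h was 0.64 (95% interval -0.25 to 1.53) and 0.44 (95% interval -0.05 to 0.93), with no call. With the replicate number as a block both passed the threshold (limma adjusted p = 0.00112 and 0.00968). With that block 1772 of 13595 genes were called higher and 1662 lower, and no label ties the number to a batch.

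**Figure D5:**
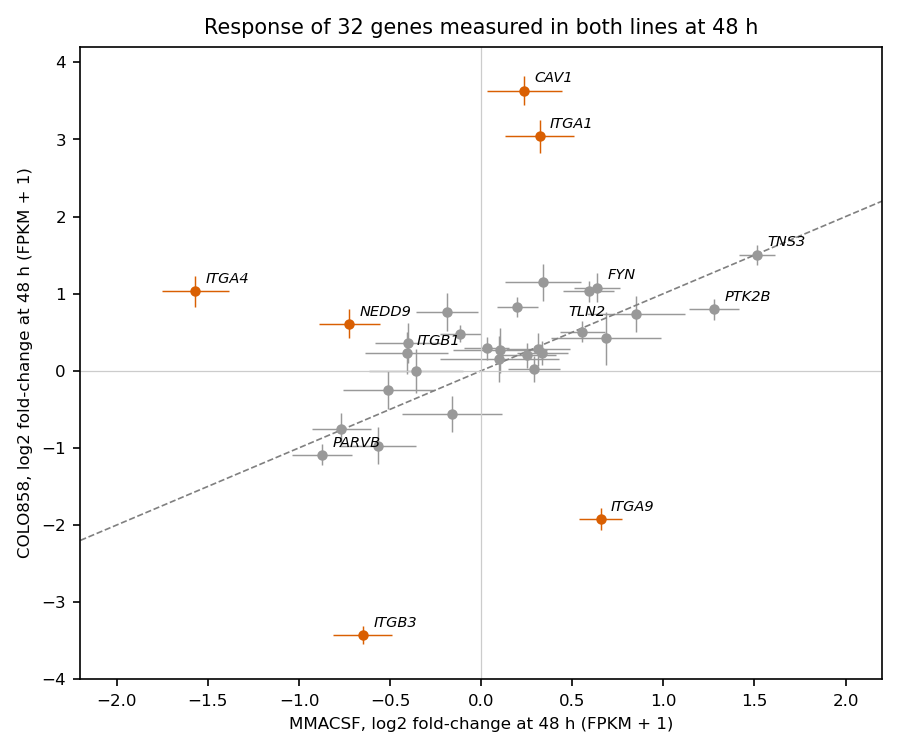
Each point is 1 of the 32 genes measured in both lines, with its log2 fold-change (FPKM + 1) at 48 h in MMACSF on the x axis and in COLO858 on the y axis, bars of 1 SE, and a dashed line where the values are equal. Orange points (CAV1, ITGA1, ITGA4, NEDD9, ITGA9 and ITGB3) passed the limma test of the difference, and TNS3 lies on the line at 1.51 and 1.504.

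A wider list of 88 other focal adhesion plaque genes gave the setting. It was chosen with earlier results of these data known, so its shares describe the list and are no test. Of the 80 measured in COLO858, 2 rose and 4 fell at 24 h, or 2.5% and 5% where 4.11% and 5.71% of all genes did. At 48 h 11 rose and 3 fell, or 13.8% and 3.75% beside 4.74% and 4.73% of all genes, with a median log2 fold-change of 0.28 beside -0.01. Of the 78 measured in MMACSF, 3 rose and 3 fell at 24 h (3.85% each, beside 2.22% and 3.6%), while 4 rose and 5 fell at 48 h (5.13% and 6.41%, beside 3.42% and 5.41%), with a median of 0.04 beside 0.06 over all genes. VCL, which encodes the talin partner vinculin, was at 27.1 and 28.8 FPKM in COLO858 with DMSO, 42.8 and 45.5 FPKM at 24 h and 78.1 and 84.2 FPKM at 48 h, with each group above the one before it. In MMACSF it ran from 19.6 and 23.7 FPKM in DMSO to 16.4 and 19.8 FPKM at 48 h. The highest fold-change of the list in COLO858 at 48 h was that of SORBS2, an adaptor of the vinexin family, from 0.112 and 0.122 FPKM in DMSO to 6.87 and 8.84 FPKM. It also rose in MMACSF, from 2.52 and 3.13 FPKM to 9.58 and 11.5 FPKM at 48 h (log2 fold-change 1.59, limma adjusted p = 0.00398), and the difference between the lines was 1.39 (adjusted p = 0.00502). The lowest was that of DAB2, an endocytic adaptor, from 32.9 and 39.3 FPKM to 8.49 and 10.9 FPKM. In MMACSF it was at 49.6 and 62.3 FPKM in DMSO and 28.8 and 33.4 FPKM at 48 h, also below DMSO but with no call (log2 fold-change -0.82, limma adjusted p = 0.0215), and the difference between the lines was -0.97 (adjusted p = 0.0359).

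On the ligand side, a list of 35 matrix and cell surface ligands of integrins was followed in the same way. It too was chosen with earlier results of these data known. It holds THBS1, LAMA1, LAMC1, NOV and L1CAM, which the study reported as up-regulated by the drug in COLO858. The shares below describe the list and are no test. Of the 32 measured in COLO858, 8 rose and 5 fell at 24 h, or 25% and 15.6% where 4.11% and 5.71% of all genes did. At 48 h 14 rose and 5 fell, or 43.8% and 15.6% beside 4.74% and 4.73%, with a median log2 fold-change of 0.64 beside -0.01 over all genes. Of the 25 measured in MMACSF, 2 rose and 2 fell at 24 h (8% each, beside 2.22% and 3.6%), while 2 rose and 4 fell at 48 h (8% and 16%, beside 3.42% and 5.41%), with a median of 0.31 beside 0.06.

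In none of the 8 comparisons did 22 of the 36 measured genes pass the threshold, among them ITGAV, ITGB1, ITGB5, PTK2, SRC, ILK and PXN. Their log2 fold-changes against DMSO ranged from -1.0003 (ITGA3 in COLO858 at 24 h) to 1.15 (PARVA in COLO858 at 48 h). With 2 libraries per group the intervals of such genes were wide, so a missing call does not show that a gene stayed the same.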

How the data were processed

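RNA was sequenced from 12 cultures, 2 per group, of COLO858 and MMACSF. According to the labels and the submitters' processing notes, the authors made stranded mRNA libraries (50-base single reads), used TopHat and Cuffdiff with genome build hg19 and deposited 1 table per line with FPKM per gene and library. Versions and the strand setting are not given in the sources used here. The deposited FPKM keep no read counts, so depth is unknown and the tables were normalized separately, which limits level comparisons across lines.

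From there, log2(FPKM + 1) was fitted with limma 3.58.1 (R 4.3.3, empirical Bayes with trend) over genes whose mean reached 1 FPKM in some group, with 1 model for the 3 groups of a line and 1 for all 6 groups for the difference between lines. P-values were adjusted by Benjamini-Hochberg over all genes tested, and calls use an adjusted p under 0.01. The fit was tested on simulated data. SDs and intervals rest on 2 cultures per group and their spread. Exons came from GENCODE v44lift37 (GRCh37) and promoters from RefSeq. Genes were named where called in any comparison, plus ITGB1, PTK2, SRC and FYN, and others by range, or by name where a count is small. ITGA3, ITGA5, PARVA, TLN1 and ILK were named after their values were seen. The members and lists were chosen with earlier results of these data known. Figures were drawn with matplotlib 3.10.9. Alternatives were another pseudocount, other minimums, median-ratio rescaling, a replicate block, no trend, only the 4 libraries compared, each library left out, and, chosen after seeing the data, no small RNA genes.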

Additional observations from a re-analysis of the deposited data

Results flagged for a closer look

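The limma test of the difference in response (COLO858 log2 fold-change minus that of MMACSF) passed the threshold for 14 results. At 24 h the difference was 2.61 for ITGA4, -2.04 for ITGA9, -1.77 for ITGA10, -1.21 for ITGA11 and -1.97 for ITGB3. At 48 h it was 2.72 for ITGA1, 2.60 for ITGA4, -2.58 for ITGA9, -2.67 for ITGA10, -1.47 for ITGA11, -2.78 for ITGB3, 1.33 for NEDD9, -1.22 for TNS1 and 3.40 for CAV1. ITGA10 and ITGA11 were under the minimum in MMACSF and TNS1 in COLO858, so for these the difference is set by the other line. For these genes the test does not show that the lines responded differently.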

How the results depend on the processing

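With 2 libraries per group and no read depth, only large changes could be called. The replicate numbers appear in all groups, but no label says that a number marks a shared batch. The deviations of same-numbered libraries gave correlations of 0.196 to 0.211 for COLO858 and of 0.0628 to 0.113 for MMACSF. Replicate 2 lay on the same side of replicate 1 in 3 of 3 groups for 82.9% of the measured members in COLO858 and 75.8% in MMACSF (75% and 67.4% of all genes tested). With unrelated numbers that would be the rarer outcome. The main fit holds no block, so any difference shared by same-numbered libraries adds to its spread. What the numbers stand for was not tested. With the number as a block, members called higher and lower in COLO858 were 9 and 10 of 35 at 24 h, beside 2949 and 2770 of 12696 genes. They were 17 and 9 at 48 h (beside 2590 and 2959) and 11 and 3 for 48 h against 24 h (beside 1159 and 1121). In MMACSF the block gave 7 and 5 of 33 at 24 h (beside 1651 and 1633 of 12599). At 48 h it gave 9 and 8 (beside 1867 and 1923). For the difference between lines the block gave 4 and 10 of 36 at 24 h (beside 1221 and 1175 of 13595). At 48 h the block gave 11 and 6 (beside 1772 and 1662). It was the only alternative that put past the threshold ITGB1 in MMACSF at 48 h (-0.41, limma adjusted p = 0.00524) and the difference at 48 h for ITGB1 (0.64, adjusted p = 0.00112) and FYN (0.44, adjusted p = 0.00968). The same held for FYN in MMACSF at 24 h (0.62, limma adjusted p = 0.00352) and at 48 h (0.64, adjusted p = 0.0028). FYN in COLO858 at 48 h (1.08) passed with the block, after median-ratio rescaling and without small RNA genes. Leaving out 1 library in turn left 0 higher and 1 lower in COLO858 at 24 h, 1 higher and 2 lower at 48 h and 0 for 48 h against 24 h. In MMACSF it left 0 higher and 0 lower at 24 h and at 48 h. The lone library of a group is then assumed to vary like the others.

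A minimum of 10 FPKM tests fewer genes. It gave 1 member lower in COLO858 at 24 h and 2 at 48 h (beside 484 and 386 of 7657 genes). For the difference between lines it gave 2 lower at 24 h and 3 at 48 h (beside 111 and 253 of 8576). No group mean of ITGA9, ITGA10, ITGA11 or ITGB8 reached 10 FPKM in COLO858, so they were not tested there. ITGA10 and ITGA11 were likewise not tested in the difference. No minimum gave 2 higher in COLO858 at 24 h (beside 395 of 18234 genes) and 0 higher for 48 h against 24 h (beside 74). In MMACSF no minimum gave 1 higher at 24 h (beside 179 of 17710 genes). Fitting only the 4 libraries compared gave 1 higher and 3 lower in COLO858 at 24 h (beside 249 and 430 of 12521 genes). It gave 3 lower at 48 h (beside 226 of 12474) and 0 higher for 48 h against 24 h (beside 25 of 12355). In MMACSF this fit gave 1 higher at 24 h (beside 57 of 12415). Adding 0.1 FPKM gave 2 lower for the difference at 24 h (beside 143 of 13595 genes). Median-ratio rescaling gave 1 lower in MMACSF at 24 h (beside 633 of 12591 genes). For the difference at 24 h it gave 2 higher (beside 297 of 13588). Dropping small RNA genes, chosen after seeing the data, gave 7 higher in COLO858 at 48 h (beside 830 of 12353 genes). It gave 1 lower in MMACSF at 24 h and 2 at 48 h (beside 686 and 970 of 12280). For the difference at 24 h it gave 2 higher (beside 261 of 13197). For the other alternatives the cause was not tested beyond the numbers of genes and libraries. No called gene changed sign in any alternative. Signs changed for uncalled values near 0 when a library was left out, from -0.49 to 0.045 for ITGB1 in COLO858 at 24 h, -0.0397 to 0.50 at 48 h and -0.35 to 0.10 in MMACSF at 24 h, and from -0.0567 to 0.15 for FYN in COLO858 at 24 h, which rescaling also put at -0.0586.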
